A study of Mus musculus with 8 samples.

Results

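The 5 C/EBP genes examined here, Cebpa, Cebpb, Cebpd, Cebpe and Cebpg, are all the members that were chosen for this account, out of 21887 protein-coding genes on the mouse chromosomes. Each locus was the gene body extended 50 kb to each side on mm10, and every peak listed in these windows was read. C/EBP proteins (CCAAT/enhancer binding proteins) are transcription factors with a basic leucine zipper, which bind DNA as dimers with each other. In the marrow, Cebpa is known to be needed for the step from multipotent progenitors to the granulocyte and monocyte lineage, and Cebpe for the later stages of the granulocyte. Cebpb is known for driving granulocyte output under infection, Cebpd is induced late in that lineage, and Cebpg encodes a short partner that lacks an activation domain.

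Chromatin accessibility was measured by ATAC-seq, in which a transposase cuts open DNA, in 8 libraries of common myeloid progenitors sorted from bone marrow of wild-type C57BL/6 mice. The 4 populations, each with 2 libraries, were all KIT+ CD16/32- and came from 40000 to 50000 cells a library. C2 was CD34bright CD41+ CD9+, C13 was CD34dim CD41- CD9-, C10 was CD34dim CD41+ CD9+ CD48bright, and C18 was CD34dim CD41+ CD9+ CD48dim. The labels used here give neither the age nor the number of mice, nor say that replicate libraries were prepared from different animals, so p-values cover the spread between libraries only, and that spread may be technical. The sort implies 3 comparisons: C2 against the average of C10 and C18, called the C10/C18 mean below (bright against dim CD34), C13 against the C10/C18 mean (without against with CD41 and CD9), and C10 against C18 (bright against dim CD48).

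The data were lists of peaks with no read counts, and sequencing depth is therefore unknown. The F-Seq caller listed 100000 peaks in each library in falling order of signal, and a peak is described below by its rank in its own list, where 1 is the strongest. A second caller, HOMER, found 72379 and 83548 peaks in C18, against 171712 to 260118 in the other 6 libraries. The C18 libraries also had the narrowest F-Seq peaks, with a median of 491 and 618 bases against 691 to 800, and results are therefore also given without them where that changes a call of a member. A weaker peak in these bulk samples can come from fewer cells with an open site or from less opening per cell, and these cannot be told apart. Cluster names in the series text differ in part from those of the titles, and the names here follow the titles and the sorted phenotype. With F-Seq peaks, Itga2b, Cd9, Cd34 and Cd48 did not pass the test in the comparisons that their surface proteins define (Itga2b limma adjusted p = 0.213). With HOMER peaks Itga2b (-0.96, adjusted p = 0.00497), Cd9 (-0.64, adjusted p = 0.00713) and Cd48 (0.66, adjusted p = 0.0118) did, and Cd34 did not (adjusted p = 0.862). Itga2b (CD41) had 9.84 and 10.5 kb under peaks in C13, against 8.99 and 9.13 kb in C10 and 15.0 and 17.2 kb in C18, so the CD41- population did not have the least open Itga2b locus. Cd9 had 21.2 and 20.2 kb in C13, against 23.9 and 23.7 in C10 and 24.9 and 26.0 in C18 (limma adjusted p = 0.149 against the C10/C18 mean). Cd34 had 26.3 and 22.1 kb in C2, against 26.5 and 27.9 in C10 and 14.7 and 16.2 in C18 (adjusted p = 0.267). Cd48 had 9.03 and 8.65 kb in C10, against 8.18 and 4.79 kb in C18 (adjusted p = 0.135). The F-Seq calls were at markers for which C10 and C18 were sorted alike. Cd34 was higher in C10 than in C18 (0.81, limma adjusted p = 0.00385), and with HOMER peaks lower (-0.91, adjusted p = 0.00372). Itga2b (-0.81, adjusted p = 0.00504) and Fcgr3, for CD16 (-0.57, adjusted p = 0.0136), were lower. Fcgr3 was also lower in C13 than in the C10/C18 mean (-0.47, adjusted p = 0.041).

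The sequences of the gene starts show what kind of promoter lies under the peaks. The RefSeq table for GRCm38.p6 held 3 of the 5 genes, and the 250 bases before each of these starts are printed 5′ to 3′ on the strand of the gene. Cebpa lies at chr7:35119043-35119292 (+), Cebpb at chr2:167688665-167688914 (+) and Cebpg at chr7:35056567-35056816 (-). Cebpd and Cebpe are not printed. Capitals mark a TATA box (TATAAA) in Cebpa, cores of the cyclic AMP response element (TGACG, or CGTCA on the other strand) in Cebpb, and CCAAT boxes (ATTGG is CCAAT on the other strand) in Cebpg.
Cebpa: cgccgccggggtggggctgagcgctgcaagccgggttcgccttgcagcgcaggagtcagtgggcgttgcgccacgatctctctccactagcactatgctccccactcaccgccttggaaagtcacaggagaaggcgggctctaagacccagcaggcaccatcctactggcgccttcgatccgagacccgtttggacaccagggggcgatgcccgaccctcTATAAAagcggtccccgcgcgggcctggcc
Cebpb: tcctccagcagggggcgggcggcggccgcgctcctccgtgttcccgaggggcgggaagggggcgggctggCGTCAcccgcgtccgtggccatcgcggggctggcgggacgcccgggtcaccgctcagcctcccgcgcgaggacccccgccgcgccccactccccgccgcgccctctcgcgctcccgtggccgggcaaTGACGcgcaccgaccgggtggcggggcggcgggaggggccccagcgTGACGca
Cebpg: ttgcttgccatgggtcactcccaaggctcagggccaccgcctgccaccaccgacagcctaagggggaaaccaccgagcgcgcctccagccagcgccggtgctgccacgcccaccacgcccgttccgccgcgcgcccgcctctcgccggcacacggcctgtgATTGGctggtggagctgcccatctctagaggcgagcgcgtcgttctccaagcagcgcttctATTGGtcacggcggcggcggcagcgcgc

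These 3 motifs were searched after the sequences had been seen. Positions are counted back from the gene start, -1 being the base just before it. The TATA box of Cebpa lay from -30 to -25, and TATAAA was held by 12.4% of all 17492 promoters of the same length on either strand. Cebpb held 3 such cores, which began at -180, -53 and -7, against 20.3% of promoters with at least 1. Cebpg held 2 CCAAT boxes, which began at -89 and -28, and 36.3% of promoters held one. No match to a C/EBP site (TTGCNNAA), a GATA site (AGATAA), a PU.1/ETS site (GAGGAA) or a RUNX site (TGTGGT) was in these 3 windows on either strand, against 9.11%, 9.12%, 22.1% and 12.5% of all promoters. All 3 windows were rich in CpG, with 22 CpG and 66.4% GC in Cebpa, 41 and 81.6% in Cebpb, and 29 and 70.8% in Cebpg, against medians of 10 and 55.2%. All 250 bases lay under an F-Seq peak in 8 of 8 libraries at Cebpa and at Cebpg. At Cebpb they lay wholly under a peak in both C2 libraries, in both C13 libraries and in C18 replicate 2, with 218 bases in C18 replicate 1. In both C10 libraries no base of the Cebpb window was under an F-Seq or a HOMER peak, and HOMER peaks touched this window in only 3 of the other libraries.

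By mean, open chromatin at the family was widest at Cebpa and Cebpb in all 4 populations, and narrowest at Cebpd in C2, C13 and C10. In C18 the mean was lowest at Cebpg, but its values of 12.3 and 7.60 kb lay on both sides of the 10.9 and 10.1 kb of Cebpd. The bases under F-Seq peaks, scaled to the mean covered length of a library, averaged 23.5 ± 3.27 kb at Cebpa in C2, 19.0 ± 0.00803 in C13, 20.0 ± 0.279 in C10 and 17.3 ± 4.77 in C18 (mean ± SD, n = 2 each). Cebpb had 20.6 ± 1.05, 14.5 ± 1.39, 12.5 ± 1.38 and 23.3 ± 3.53 kb in the same populations. The windows are of nearly the same length, and the order of the genes differed by population. Both Cebpa values were above both Cebpb values in C13 and in C10, the values of Cebpa and Cebpb overlapped in C2, and Cebpb was the higher in C18. Cebpg had 13.3 ± 0.804 kb in C2, 11.1 ± 0.260 in C13, 11.3 ± 1.62 in C10 and 9.94 ± 3.32 in C18. Cebpe had 12.3 ± 0.109 kb in C2, 8.03 ± 1.09 in C13, 8.91 ± 0.392 in C10 and 13.8 ± 1.46 in C18. The values of Cebpg and Cebpe did not overlap in C2 and C13, where Cebpg was the higher in each, and neither did they in C10 and C18, where Cebpg was the higher in C10 and Cebpe in C18. Cebpd had 8.35 ± 1.71 kb in C2, 7.14 ± 0.0897 in C13, 7.33 ± 0.255 in C10 and 10.5 ± 0.523 in C18. As a share of its window, Cebpa was covered for 20.6% and 25.6% in C2, 20.3% and 20.9% in C13, 20.4% and 21.9% in C10, and 14.1% and 12.0% in C18 before scaling, where the median of all loci tested was 4.79% to 7.51% over the 8 libraries.

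**Figure D1:**
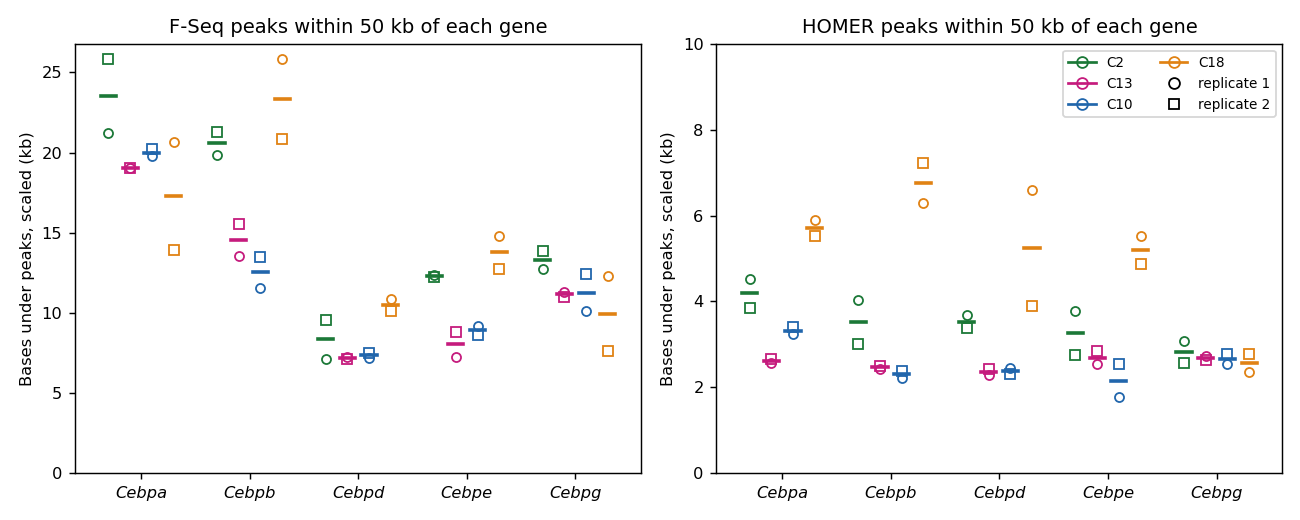
Bases under F-Seq peaks (left) and HOMER peaks (right) within 50 kb of each C/EBP gene, in kb scaled to the mean covered length, for 2 libraries (circle and square) of C2, C13, C10 and C18. Lines are means. Under F-Seq, Cebpb has 11.5 and 13.5 kb in C10 and at least 19.8 kb in every C2 and C18 library, whereas Cebpa differs little between C13 and C10.

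With scaled F-Seq peaks over whole loci, Cebpb, Cebpe and Cebpd had less open chromatin in C10 than in C18. These were 3 of 5 members, beside 23.9% of all loci. Cebpa and Cebpg did not pass the test in any comparison of that fit. Which members were called changed with the caller and with the scaling, as given below. Cebpb had 11.5 and 13.5 kb in C10, against 25.8 and 20.8 kb in C18. The 2 groups did not overlap, and the log2 difference was -0.89 (SE 0.145, limma adjusted p = 0.00482). Cebpe had 9.19 and 8.63 kb in C10, against 14.8 and 12.7 kb in C18, again without overlap, a difference of -0.61 (SE 0.145, limma adjusted p = 0.0151). Cebpd had 7.15 and 7.51 kb in C10, against 10.9 and 10.1 kb in C18, a difference of -0.50 (SE 0.168, limma adjusted p = 0.0481). Of all 19710 loci tested, 23.9% were called lower in C10 than in C18 (35.7% in either direction), with a median difference of -0.14, and 10 of 18 housekeeping loci were among the lower ones. The part of these differences between C10 and C18 that the narrow C18 peaks carry was not tested. Without scaling, the differences were -0.43 for Cebpb (adjusted p = 0.074), -0.16 for Cebpe (adjusted p = 0.472) and -0.05 for Cebpd (adjusted p = 0.86), where the median of all loci was 0.30, and of the calls 89.3% were higher in C10 without scaling, against 32.9% with it. Without C10 replicate 1, the adjusted p was 0.0512 for Cebpb and 0.0771 for Cebpe, and without C10 replicate 2 it was 0.0805 for Cebpe. For Cebpd it exceeded 0.05 without any 1 library of C13, C10 or C18 (0.0634 to 0.203). By number of peaks none of the 3 was called (adjusted p = 0.0539 for Cebpb, 0.181 for Cebpe and 0.0755 for Cebpd). Cebpd was also lost with 10 kb windows (0.0795), with no filter on loci (0.0627) and with no trend in the spread (0.0548).

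Cebpa and Cebpg had similar or higher values in C10. Cebpa had 19.8 and 20.2 kb in C10, against 20.7 and 13.9 kb in C18, a difference of 0.23 (SE 0.182, limma adjusted p = 0.341). Cebpg had 10.1 and 12.4 kb in C10, against 12.3 and 7.60 kb in C18, a difference of 0.21 (SE 0.218, limma adjusted p = 0.477). In both, C18 replicate 2 had the lowest value of the 8 libraries, and without it the differences were -0.05 and -0.13. Without scaling both differences passed the test, with 0.69 for Cebpa (adjusted p = 0.0142) and 0.66 for Cebpg (adjusted p = 0.0323), and without C18 replicate 1 likewise, with 0.52 (adjusted p = 0.0204) and 0.55 (adjusted p = 0.0284).

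In C2 against the C10/C18 mean, 0 of the 5 loci were called by limma, beside 0.0761% of all loci, 0 had an unadjusted p under 0.05, and 0 were called in the HOMER lists. The differences ran between -0.08 (Cebpd) and 0.34 (Cebpa and Cebpg), with an all-locus median of 0.05. Cebpa without C18 replicate 1 had 0.48 (adjusted p = 0.0482). Against C10 alone, with the C18 libraries left out, 2 of the 5 were higher in C2, beside 16.5% of all loci and 7 of 18 housekeeping loci. Cebpb had 19.8 and 21.3 kb in C2, against 11.5 and 13.5 kb in C10, a difference of 0.71 (SE 0.118, limma adjusted p = 0.0145). Cebpe had 12.4 and 12.2 kb in C2, against 9.19 and 8.63 kb in C10, a difference of 0.46 (SE 0.127, limma adjusted p = 0.0447). In C13 against the C10/C18 mean, 0 of the 5 were called by limma, beside 9.66% of all loci, and 1 had an unadjusted p under 0.05. Cebpe came nearest, with 7.26 and 8.80 kb in C13 against 9.19 and 8.63 kb in C10, which it overlapped, and 14.8 and 12.7 kb in C18, a difference of -0.46 (SE 0.126, limma adjusted p = 0.0568). The call was made without C18 replicate 1 (-0.41, adjusted p = 0.0473) and without C18 replicate 2 (-0.51, adjusted p = 0.0303), and with the 50000 strongest peaks (-0.85, adjusted p = 0.0143). With F-Seq peaks that a HOMER peak also marked, Cebpd (-0.52, adjusted p = 0.0235) and Cebpb (-0.49, adjusted p = 0.0347) were called lower in C13. Against C10 alone it was -0.15 (limma adjusted p = 0.491), and 0 of the 5 members were called in that comparison, beside 5.75% of all loci, nor did any reach an unadjusted p under 0.05. Over all 4 populations at once, the moderated F-test called Cebpb (adjusted p = 0.00983) and Cebpe (adjusted p = 0.0145), 2 of 5 members beside 37% of all loci.

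HOMER peaks gave another picture of Cebpa. Scaled to the mean length under HOMER peaks, Cebpa had 2.56 and 2.65 kb in C13, 3.23 and 3.40 in C10, and 5.90 and 5.51 in C18. These differences were called, with -0.70 in C13 against the C10/C18 mean (limma adjusted p = 0.00531) and -0.75 in C10 against C18 (limma adjusted p = 0.00175). HOMER peaks covered 9.95 and 11.3 Mb of the genome in C18, against 31.9 and 35.8 Mb in C10 and 35.3 and 34.7 Mb in C13. The scaling thus raised the C18 values and lowered those of C10 and C13, and HOMER values without scaling were not tested. Cebpb was also called lower in C13 in these lists (-0.65, adjusted p = 0.013), so that 2 of 5 members were, beside 22.1% of all loci. In C10 against C18, 4 of 5 were lower, all but Cebpg, beside 36.8%. In C18, 42.4% and 42.0% of F-Seq peaks had a HOMER peak of the same library, against 71.1% to 94.4% in the other libraries, so the callers differ most there, and the direction for Cebpa between C10 and C18 differs with the caller.

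The windows held 102 separate regions (the merged union of the 8 F-Seq lists), of 207739 in the genome. Cebpa had 27, Cebpb 28, Cebpd 10, Cebpe 23 and Cebpg 24, with 10 shared by Cebpa and Cebpg, whose gene bodies are 62.7 kb apart on chromosome 7. Of the 102, 32 (31.4%) were called in all 8 libraries, against 19.1% of all regions, and 43 (42.2%) in 1 library alone, against 40.2%. Cebpa and Cebpb had 11 regions in all 8 libraries each, and Cebpe 4 of its 23. Regions of 1 library were mostly those of C18 (15 in replicate 1 and 10 in replicate 2) and of C2 (8 each), with 0 and 1 in C13 and in C10. Over the genome too, 57.2% of the regions of 1 library were those of C18 and 27.1% those of C2, against 58.1% and 37.2% here. Each region was then scored in each library as the log2 of the list length plus 1 over the rank of its strongest peak, with 0 where no peak was listed, so that a difference of 1 stands for a rank 2 times nearer the top. Of the 102 regions, 59 were called in at least 2 libraries and tested.

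In C13 against the C10/C18 mean, 15 of these 59 regions passed the test (25.4%), beside 33.7% of all regions. By direction, 7 were higher, beside 22.8% of all regions, and 8 lower, beside 10.9%. The chromosome 7 neighbourhood of Cebpa and Cebpg had 6 higher and 2 lower, the Cebpe window 1 higher and 3 lower, the Cebpb window 2 lower and the Cebpd window 1 lower. In C10 against C18, 9 passed (15.3%), beside 18.1% of all regions. Of these, 1 was higher, beside 11.5%, and 8 lower, beside 6.6%. The higher one was at Cebpa, and the lower ones were 4 at Cebpb and 4 at Cebpe. Centring the scores on gene starts shifted the median of all regions to 0.52 in C13 against the C10/C18 mean, where it was -0.032 before, and to 0.81 in C10 against C18, where it was 0.063. With centred scores 92.5% and 95.2% of the calls in these comparisons were higher ones, against 67.5% and 63.4% without centring. Centring moved every score of a library by the same constant, also the 0 of an absent peak. The region 18.5 kb after the Cebpa start, with no peak in C10 or C18, thus gained 0.75 between them (limma adjusted p = 0.0182). Since all regions moved up alike, losing a lower call or keeping a higher one with centred scores decides nothing about that region. In C2 against the C10/C18 mean, 0 of 59 passed the limma test, beside 1.19%, and 8 had an unadjusted p under 0.05. Of the 15 calls in C13, 2 are of regions that had entered the test only through the side on which they were higher. Against C10 alone, 7 of 55 regions were higher in C2, beside 7.17% of all regions called in either direction. The largest of these differences was 2.68 (limma adjusted p = 0.028), at the start of Acin1 beside Cebpe. The Cebpe gene start was 1.57 higher (adjusted p = 0.044), a region 42.6 kb above Cebpe in Slc7a8 0.98 higher (adjusted p = 0.0467), and a region 28.5 kb after Cebpb 0.73 higher (adjusted p = 0.0377). A region 6.99 kb below Cebpe had a peak in C2 (ranks 64279 and 57453) and in no library of C13 or C10, so that it entered this comparison through C2 alone. Both remaining ones, at Cebpb, are given with their ranks below, and the one 21.8 kb after the Cebpb start also entered only through its C2 peaks.

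**Figure D2:**
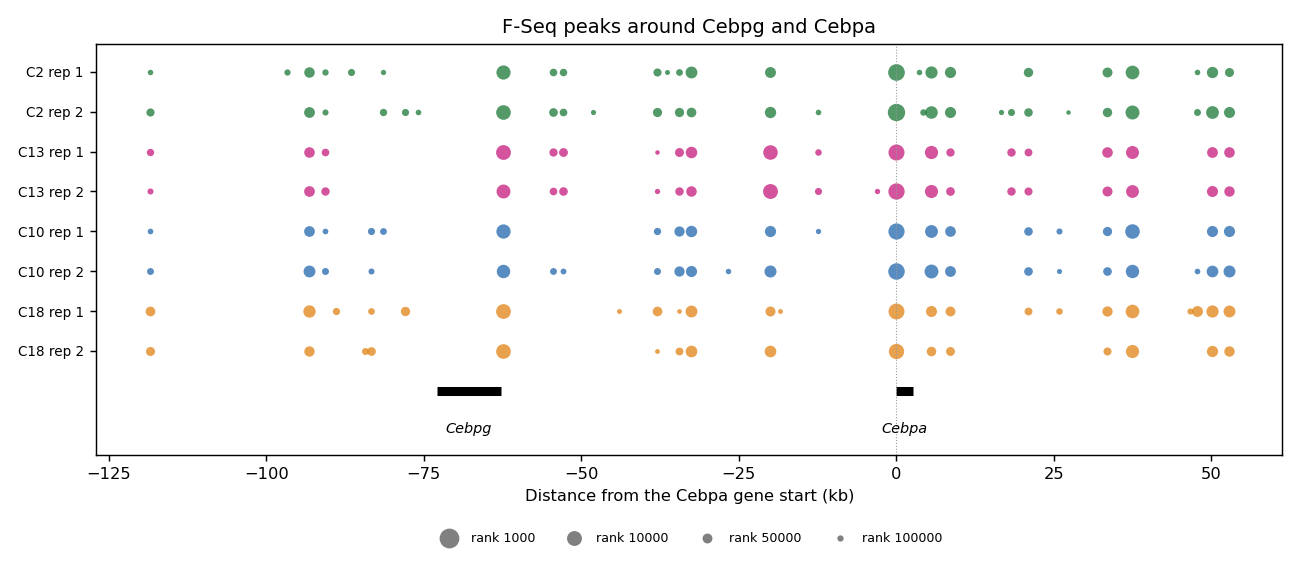
F-Seq regions around Cebpg and Cebpa, by distance from the Cebpa gene start (kb, horizontal) in each library (rows, with C2 at the top, then C13, C10 and C18). Larger dots are peaks nearer the top of their list. The region 20.3 kb before Cebpa has its largest dots in both C13 libraries (ranks 5393 and 4597). The region 18.5 kb after the Cebpa start is missing in C18, in C10 and in C2 replicate 1. That 9.59 kb before the Cebpg start (to the right of its body) is missing in C18 and in C10 replicate 1.

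At Cebpa itself, the gene start was among the strongest peaks of every library and did not differ by the test with uncentred scores. This region, chr7:35116882-35121686, spans the promoter and most of the gene body, and its strongest peak ranked 1943 and 1361 in C2, 2684 and 2386 in C13, 2518 and 2174 in C10, and 2833 and 3826 in C18. Both C2 libraries ranked it above the other 6. The score was 0.77 higher in C2 than in the C10/C18 mean (SE 0.238, limma adjusted p = 0.181), which did not pass the test. A distal enhancer downstream of Cebpa is known to be required for its expression in myeloid progenitors. The region 37.4 kb after the start (chr7:35155190-35158147), at the start of the noncoding gene Gm35889, was singled out for that reason and not for its values. It ranked 7667 and 6913 in C2, 10393 and 11068 in C13, 5424 and 8751 in C10, and 7873 and 9762 in C18, and HOMER listed 8 and 7 peaks in it in C2, 3 and 3 in C13, 6 and 4 in C10, and 4 and 2 in C18. Both C13 libraries ranked it lowest, yet the difference from the C10/C18 mean was not called (-0.46, limma adjusted p = 0.194).

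C13 stood apart at a site upstream of Cebpa. The region 20.3 kb before the start (chr7:35098173-35100217), between Cebpg and Cebpa and in neither gene, ranked 21857 and 19063 in C2, 5393 and 4597 in C13, 19955 and 14944 in C10, and 29565 and 17082 in C18. Both C13 ranks were ahead of all 6 others, and all 8 libraries also had a HOMER peak there. The score was 1.98 higher in C13 than in the C10/C18 mean (SE 0.274, limma adjusted p = 0.0027) and 1.79 higher than in C10 alone (adjusted p = 0.00454), a comparison that called 32.4% of all regions. Its call held under every alternative that was run.

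Other sites of the same neighbourhood were weaker. The region 18.5 kb after the Cebpa start (chr7:35137125-35138017), in the noncoding genes Gm35724 and Gm35665, ranked 45860 and 45594 in C13 and 63206 in C2 replicate 2, with no F-Seq peak in the other 5 libraries. It entered the test only through its C13 peaks and so had to differ. With no filter on regions the difference was 1.13 (limma adjusted p = 0.0201). HOMER listed a peak there in the C13 libraries alone. The region 9.59 kb before the Cebpg start (chr7:35065765-35067043) ranked 57098 and 54713 in C2 and 40919 and 43423 in C13, had none and 79707 in C10, and none in either C18 library. It was 1.16 higher in C13 than in the C10/C18 mean (SE 0.162, limma adjusted p = 0.00277). Next to it, 8.46 kb before the Cebpg start (chr7:35064394-35065379), the ranks were 55681 and 42742 in C2, 47176 and 55244 in C13, none and 65861 in C10, and none in C18 (0.82, SE 0.232, limma adjusted p = 0.0376). This last call was lost against C10 alone (0.67, adjusted p = 0.126) and without any 1 library of C13 or C18 (0.0507 to 0.249) or C10 replicate 1 (0.0745), with the 50000 strongest peaks (0.359) and with no filter on regions (0.0744).

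The remaining calls of this neighbourhood were smaller. The region 12.4 kb before Cebpa (chr7:35106538-35107296) was 0.55 higher in C13 (SE 0.108, limma adjusted p = 0.00977), with ranks from 62258 to 88256 in the 4 libraries that had it and no HOMER peak in any library. It lost the call without C13 replicate 2 (adjusted p = 0.0954) and with an absent peak set at rank 200000 (0.0812). The region 27.8 kb after the Cebpg start in Pepd, a peptidase gene (chr7:35027803-35029547), was 0.75 higher in C13 (SE 0.165, limma adjusted p = 0.0155) but not against C10 alone (0.52, adjusted p = 0.107) or without C13 replicate 1 (0.0649) or replicate 2 (0.141). The region 20.9 kb after the Cebpg start in Pepd (chr7:35035281-35036525) had no peak in C2 or C13, ranks of 61916 and 77316 in C10, and 68397 and 42737 in C18. This region entered the test only through its C10 and C18 peaks. The difference in C13 was -0.71, and it was not called with no filter on regions (adjusted p = 0.115), with no trend in the spread (0.0531), with centred scores (-0.15, adjusted p = 0.553) or without any 1 library of C2, C13 or C10 (0.061 to 0.229). The region 7.99 kb after the Cebpa start (chr7:35126105-35129519) ranked 20020 and 20868 in C2, 46642 and 42224 in C13, 23668 and 22395 in C10, and 30640 and 40208 in C18. Its difference of -0.64 in C13 (SE 0.186, limma adjusted p = 0.0406) became -0.09 once scores were centred on the gene starts of each library (adjusted p = 0.78), with no filter on regions the adjusted p was 0.0545, and without any 1 library of C2, C13 or C10 the adjusted p was 0.0568 to 0.299.

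With uncentred scores, C10 and C18 differed at 1 site near Cebpa. Centred scores, which moved all regions toward C10, added calls higher in C10. Among these were the Cebpa gene start (1.24, limma adjusted p = 0.00837) and the region 37.4 kb after it (1.10, adjusted p = 0.0121). The regions 34.6 kb before the start (2.14, adjusted p = 0.00181) and 7.99 kb after it (1.36, adjusted p = 0.00279) were others. The region 5.67 kb after the start (chr7:35124266-35125463) ranked 13871 and 12188 in C2, 9469 and 9957 in C13, 10975 and 7197 in C10, and 21365 and 33611 in C18. It was 1.59 higher in C10 than in C18 (SE 0.309, limma adjusted p = 0.0203), and the call was lost without C10 replicate 1 (0.0558) or replicate 2 (0.0939). The Cebpg gene start (chr7:35055163-35058491), where Gm45095 also starts, ranked between 4776 and 8607 in the 8 libraries and was called in no comparison (limma adjusted p = 0.269 to 0.966).

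**Figure D3:**
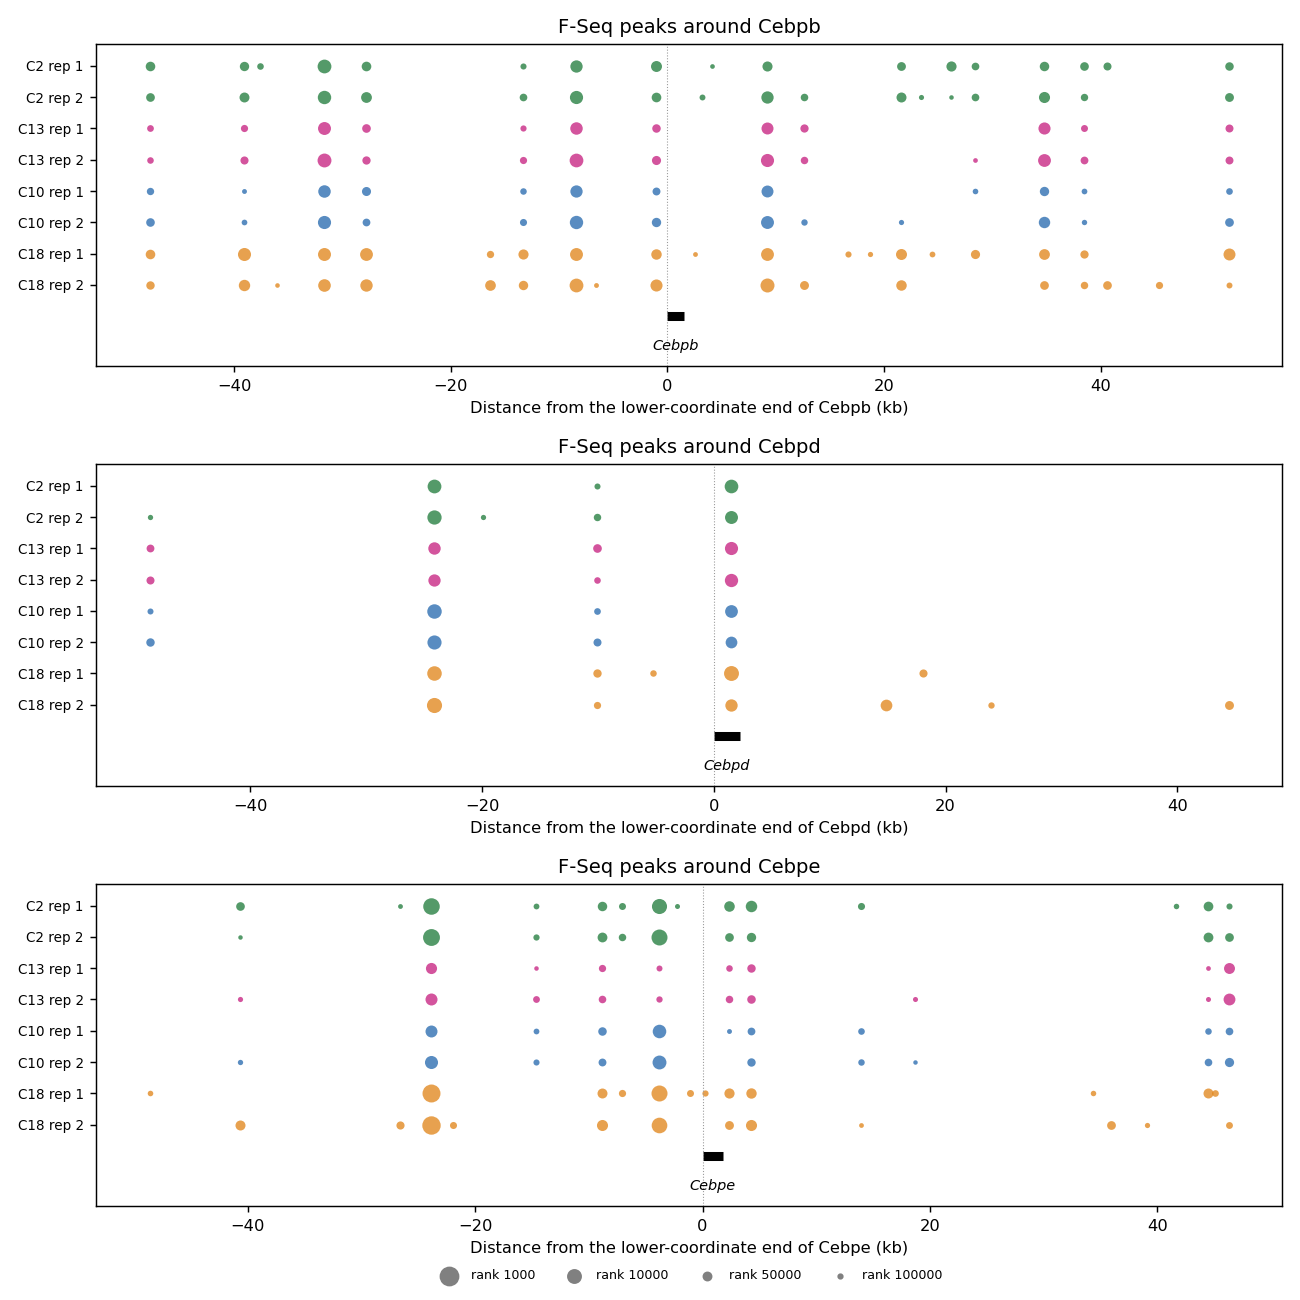
F-Seq regions around Cebpb, Cebpd and Cebpe, by distance from the lower-coordinate end of each gene (kb, horizontal) in each library (rows, with C2 at the top, then C13, C10 and C18). Dot size gives the rank as in the map of Cebpa. The region 4.35 kb below Cebpe shrinks to ranks 78286 and 73477 in C13, and Cebpd has few regions besides its own and the one 23.9 kb below it.

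The largest difference of any region in the 5 windows lay beside Cebpe. Cebpe is transcribed toward lower coordinates, and an enhancer downstream of it is known to be needed for its expression in granulocyte development. The region chr14:54705291-54707732 lies in no gene, with its summit 4.35 kb below the gene body and 6.17 kb from the higher-coordinate end. It ranked 4267 and 2782 in C2, 78286 and 73477 in C13, 8259 and 7170 in C10, and 2734 and 3276 in C18. The site was thus near the top of the list in 6 libraries and far down it in both C13 libraries. The difference in score was -3.98 in C13 against the C10/C18 mean (SE 0.226, limma adjusted p = 0.000636). Against C10 alone the difference was -3.30 (adjusted p = 0.00349), with centred scores it was -3.43 (adjusted p = 4.57e-05), and the call held under every alternative that was run. The site still held peaks in C13, where HOMER listed 2 in each library, against 3 and 5 in C10 and 4 and 6 in C18. The F-Seq peaks there covered 784 and 1556 bases in C13, against 1863 and 1826 in C10 and 1863 and 1937 in C18. It was also lower in C10 than in C18 (-1.36, SE 0.261, limma adjusted p = 0.0195), but not with centred scores (-0.61, adjusted p = 0.0898) nor without C10 replicate 1 (0.107) or replicate 2 (0.0724).

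Markers of other lineages differed in the same comparison at the level of loci. In C13 against the C10/C18 mean, 3 of 10 mast cell, basophil and eosinophil loci, 2 of 14 erythroid and 2 of 12 megakaryocyte loci were lower, and 5 of 12 lymphoid loci were higher, beside 5.07% of all loci lower and 4.59% higher. Of 18 housekeeping loci, 2 were lower. Against C10 alone, 2 of the 12 lymphoid loci were higher. Lower there were 3 of 10 mast cell, basophil and eosinophil, 3 of 14 erythroid, 1 of 12 megakaryocyte and 0 of 18 housekeeping loci. Of all loci, 5.75% were called in either direction. The summed covered length of the mast cell, basophil and eosinophil list was 74.7 to 77.6 kb in C13, against 96.9 to 98.8 in C10 and 89.8 to 95.3 in C18. That of the erythroid list was 131 to 137 kb in C13, against 148 to 153 in C10 and 175 to 209 in C18. The lymphoid list had 157 to 161 kb in C13, against 133 to 134 in C10 and 105 to 115 in C18. At most 1 gene of each of these lists had no peak in some library. Their part in the differences at Cebpe and Cebpa was not tested.

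The Cebpe gene start was weak in all populations, and weakest in C10. The region that overlaps its higher-coordinate end (chr14:54711780-54713566) ranked 24733 and 42696 in C2, 70233 and 57222 in C13, 93433 and none in C10, and 27741 and 40773 in C18. C10 and C18 did not overlap, with a difference of -1.52 (SE 0.345, limma adjusted p = 0.0314). It fell short of the test with centred scores (-0.77, adjusted p = 0.0959), with no filter on regions (0.0571) and without any 1 library of C13 or C10, or C18 replicate 1 (0.0677 to 0.128). Over the gene body, a further region was called in C18 replicate 1 alone, at rank 74864 and with no HOMER peak.

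Around Cebpe, C10 stood apart from C2 and C18 mostly at the start of a neighbour. The region 23.6 kb below the gene (chr14:54685435-54687607) holds the starts of Acin1, which encodes a factor of chromatin condensation and splicing, and of 1700123O20Rik. It ranked 2126 and 1778 in C2, 20467 and 15052 in C13, 15277 and 10121 in C10, and 999 and 783 in C18. C2 and C18 had it near the top of their lists, and C13 and C10 did not. The difference was -3.81 in C10 against C18 (SE 0.299, limma adjusted p = 0.00318). In C13 against the C10/C18 mean it was -2.40 (SE 0.259, limma adjusted p = 0.00113), but against C10 alone -0.50 (adjusted p = 0.251). Of the tested gene-start regions in the genome, 24.9% were lower in C10 than in C18, against 4.82% of the other regions.

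Further away, the region 8.86 kb below Cebpe (chr14:54701205-54701860) ranked 34406 and 31133 in C2, 60528 and 56138 in C13, 44695 and 52390 in C10, and 29649 and 20964 in C18. Both its calls, -0.75 in C13 against the C10/C18 mean (SE 0.213, limma adjusted p = 0.0388) and -0.96 in C10 against C18 (SE 0.246, limma adjusted p = 0.0449), were lost with centred scores (-0.19 and -0.21), with no filter on regions (adjusted p = 0.056 and 0.0689) and, for the call in C13, against C10 alone (-0.27, adjusted p = 0.349). The call in C10 was also lost with the 50000 strongest peaks (adjusted p = 0.0581). They were also lost without any 1 library of C2, C13 or C10, with adjusted p from 0.0541 to 0.271 for the call in C13, and from 0.0616 to 0.172 for that in C10. The call in C10 was lost without C18 replicate 2 as well (-0.71, adjusted p = 0.0909). The region in Slc7a8, an amino acid transporter gene, 44.4 kb above Cebpe (chr14:54756032-54757218), ran the other way. It ranked 76506 and 42232 in C2, 21816 and 15993 in C13, 55281 and 36954 in C10, and none and 65674 in C18 (1.70 higher in C13, SE 0.354, limma adjusted p = 0.0128). That call was lost against C10 alone (1.27, adjusted p = 0.0523) and without C13 replicate 1 (0.0675) or replicate 2 (0.132).

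**Figure D4:**
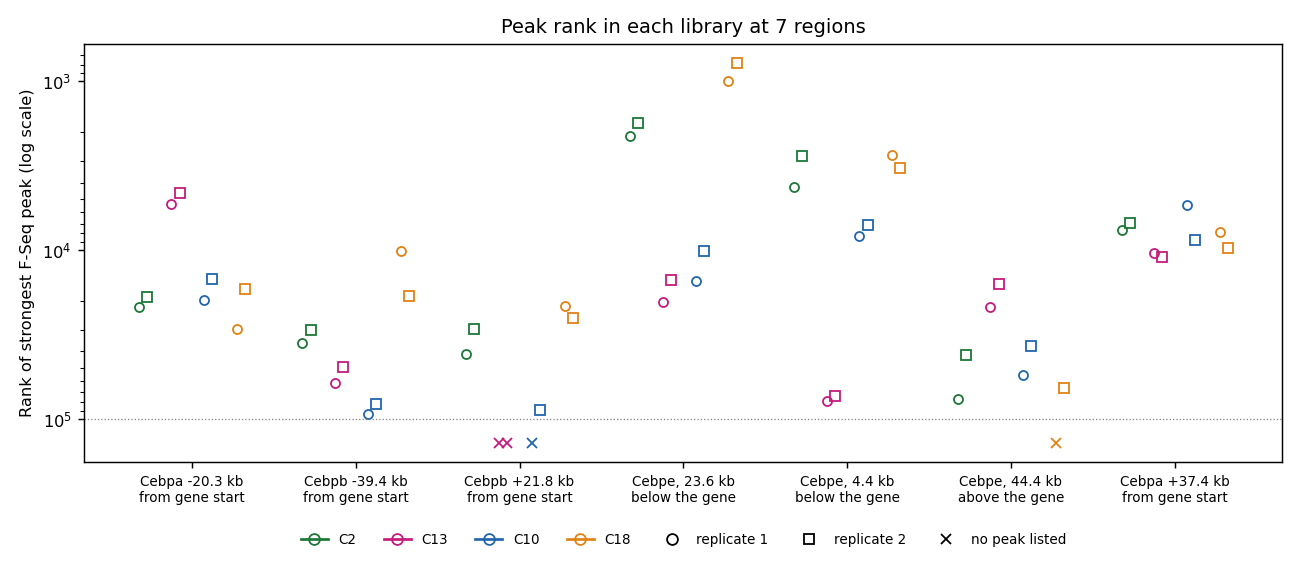
Rank of the strongest F-Seq peak (log axis, strongest at the top) in each library of C2, C13, C10 and C18 at the regions with the largest differences whose groups do not overlap, and at the Cebpa region 37.4 kb after the start. Crosses below the dotted line (rank 100000) mark libraries with no peak. C13 stands highest at the site 20.3 kb before Cebpa and lowest at the site 4.4 kb below Cebpe.

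At Cebpb the regions called lower in C10 than in C18 lay away from the gene start. The start region (chr2:167684654-167691132), which also holds the start of the noncoding A530013C23Rik, ranked 21653 and 32672 in C2, 44951 and 38102 in C13, 51860 and 35610 in C10, and 25533 and 14609 in C18. C10 and C18 did not overlap, yet the difference of -1.15 was not called (SE 0.375, limma adjusted p = 0.0867). This start region is 6479 bases wide with its median summit 3.59 kb before the gene, so its ranks need not be those of the promoter. The 250 bases before the start, which no peak covered in C10, were not tested by themselves. The region 39.4 kb before the start in Tmem189 (chr2:167648819-167650858) ranked 35743 and 29938 in C2, 61461 and 49619 in C13, 93835 and 82029 in C10, and 10145 and 18756 in C18. The difference in score was -2.67 in C10 against C18 (SE 0.336, limma adjusted p = 0.0066), and without C10 replicate 1 the adjusted p was 0.0525. C2 was higher than C10 here too (1.42, limma adjusted p = 0.0312).

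A site downstream of Cebpb was also strongest in C18 and weaker in C2. The region 21.8 kb after the start (chr2:167709861-167711185), in no gene, ranked 41354 and 29472 in C2, had no peak in C13, none and 89275 in C10, and 21449 and 25228 in C18. HOMER listed peaks there in the same 5 libraries and in none of the other 3. It was lower in C10 than in C18 (-2.02, SE 0.249, limma adjusted p = 0.00632), a call that held under every alternative that was run, and higher in C2 than in C10 (1.44, adjusted p = 0.0295). With C18 left out its only peak outside C2 was in C10 replicate 2, so it entered that comparison only through its C2 peaks. In C13 it was lower than in the C10/C18 mean (-1.09, SE 0.216, limma adjusted p = 0.0104) but not lower than in C10 (-0.08, adjusted p = 0.811) nor with centred scores (-0.54, adjusted p = 0.103), and without C13 replicate 1 or replicate 2 the adjusted p was 0.117. The region 27.2 kb before Cebpb (chr2:167659162-167662927) was likewise lower in C10 than in C18 (-1.93, SE 0.278, limma adjusted p = 0.0094). Its call in C13 (-0.95, SE 0.241, limma adjusted p = 0.0261) was absent against C10 alone (0.02, adjusted p = 0.991), and lost with centred scores (-0.39, adjusted p = 0.239), with the 50000 strongest peaks (0.216) and without C10 replicate 1 or any 1 library of C13 (0.0655 to 0.198). The region 13.6 kb before Cebpb (chr2:167674942-167676257) ranked 70608 and 62807 in C10, against 28059 and 35009 in C18 (-1.09, SE 0.267, limma adjusted p = 0.0392). That call was lost with centred scores (-0.34, adjusted p = 0.339), with no filter on regions (0.063) and without any 1 library of C13 or C10, or C18 replicate 1 (0.0757 to 0.162). The region 26.5 kb after Cebpb was listed in C2 alone, at ranks 28041 and 98571, and its difference was not called (0.93, limma adjusted p = 0.383).

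Cebpd had the fewest sites, 10 regions of which 4 were tested. The region over its gene body (chr16:15886002-15891563), which reaches into Spidr, a DNA repair gene, ranked 7949 and 10519 in C2, 9804 and 9201 in C13, 11280 and 16649 in C10, and 4596 and 13330 in C18. The populations overlapped, and no comparison was called (limma adjusted p = 0.345 to 0.922). The single call was 23.9 kb below the gene, in a region over Mzt2 and Gm41425 (chr16:15861761-15864536). It ranked 7490 and 6157 in C2, 12950 and 13578 in C13, 5597 and 6481 in C10, and 5445 and 4199 in C18, so that both C13 libraries stood last. The difference in C13 was -1.31 (SE 0.193, limma adjusted p = 0.00349), -1.14 against C10 alone (adjusted p = 0.0105) and -0.75 with centred scores (adjusted p = 0.0192), and the call held under every alternative that was run.

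The loci of genes that act with C/EBP proteins gave a few calls. Of 18 partners and regulators, 1 was higher and 3 were lower in C13 than in the C10/C18 mean, beside 4.59% and 5.07% of all loci, with a list median of -0.16 against -0.05 for all loci. Irf8, a factor of monocyte and dendritic cell fate that opposes C/EBP action in granulocyte development, had 26.9 and 31.8 kb in C13, against 11.2 and 14.8 in C10 and 10.1 and 12.1 in C18 (1.28, SE 0.153, limma adjusted p = 0.00824). Gata2, a stem, mast cell and basophil factor, had 9.35 and 10.3 kb in C13, against 16.8 and 18.8 in C10 and 22.2 and 28.1 in C18 (-1.08, SE 0.119, limma adjusted p = 0.00674). Zfpm1, the GATA cofactor FOG1, was lower too (-0.89, limma adjusted p = 0.00962), but not against C10 alone (-0.44, adjusted p = 0.0671). Atf4, a leucine zipper partner, was lower (-0.61, limma adjusted p = 0.0326), and against C10 alone it was not (-0.12, adjusted p = 0.621). Without scaling, the calls of Irf8 and Gata2 were kept and those of Zfpm1 and Atf4 were lost. With HOMER peaks Gata2 (-0.25, adjusted p = 0.161) and Zfpm1 (-0.17, adjusted p = 0.407) were not called.

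In C10 against C18, 6 of the 18 were lower, beside 23.9% of all loci, and 2 higher, beside 11.7% (list median -0.18, all loci -0.14). The lower ones were Zfpm1 (-0.90, limma adjusted p = 0.00393), Atf4 (-0.99, adjusted p = 0.00424), Runx1 (-0.74, adjusted p = 0.00796), Spi1, which encodes PU.1 (-0.54, adjusted p = 0.0112), Gata2 and Ddit3. Npm1 (0.69, limma adjusted p = 0.0154) and Sox4, which Cebpa is known to repress (0.49, adjusted p = 0.0258), were higher in C10. With HOMER peaks Sox4 was called lower instead (-0.90, adjusted p = 0.00651), Npm1 was at -0.13 (adjusted p = 0.589), and Gata2 was not called (-0.29, adjusted p = 0.117). Without scaling 5 of the 18 were higher, Npm1 and Sox4 among them, beside 5384 of all 19710 loci. The 6 lower calls were lost, and Ddit3 turned in direction. In C2 against the C10/C18 mean limma called 0 of the 18, with 5 at an unadjusted p under 0.05. Against C10 alone, 8 of 18 were higher in C2, beside 16.5% of all loci and 7 of 18 housekeeping loci. Among them, Runx1 had 53.6 and 53.1 kb in C2, against 23.8 and 31.0 kb in C10 (0.97, limma adjusted p = 0.0129).

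Of 25 known C/EBP target genes, 8 were lower in C10 than in C18, beside 23.9% of all loci and 10 of 18 housekeeping loci, and 1 was higher, beside 11.7% (list median -0.28, all loci -0.14). The lower ones were granule and neutrophil genes, as are many of the list. Others of that kind were not called, among them Ltf (0.11), Mmp8 (0.12), Ngp (-0.28) and Elane (-0.42). Fcnb, ficolin B, had 2.26 and 2.16 kb in C10, against 12.0 and 15.1 kb in C18 (-2.51, SE 0.209, limma adjusted p = 0.00244). Lcn2, a siderophore binding protein of the granules, had 7.68 and 6.61 kb in C10, against 18.2 and 13.7 kb in C18 (-1.13, limma adjusted p = 0.00424). Mmp9 (-0.88, limma adjusted p = 0.00475) and the cathelicidin gene Camp (-0.73, adjusted p = 0.0157) followed, with Mpo, S100a8, S100a9 and Chil3. The higher one was Il6, a cytokine gene (1.19, limma adjusted p = 0.0203). Without scaling 3 were lower (Fcnb, Lcn2 and Chil3) and 7 higher, with Il6 still among them. Beside these, 6031 of all 19710 loci were called without scaling, 5384 of them higher. With HOMER peaks Mmp9 and Chil3 were not called (adjusted p = 0.168 and 0.487). In C13 against the C10/C18 mean, 1 of the 25 was higher, beside 4.59% of all loci, and 2 lower, beside 5.07%. Cybb, the phagocyte oxidase gene, had 7.44 and 8.04 kb in C13, against 2.08 and 3.13 in C10 and 2.75 and 1.40 in C18 (1.70, SE 0.287, limma adjusted p = 0.0165). Fcnb (-1.34, limma adjusted p = 0.0109) and Chil3 (-2.90, adjusted p = 0.0178) were lower, and neither was against C10 alone (-0.09 and -1.78, adjusted p = 0.814 and 0.0979). With HOMER peaks Fcnb was not called in C13 (-0.15, adjusted p = 0.786). In C2 against the C10/C18 mean limma called 0 of the 25, with 9 at an unadjusted p under 0.05. Against C10 alone 9 were higher in C2, beside 16.5% of all loci and 7 of 18 housekeeping loci. Among them, Mpo, myeloperoxidase, had 40.5 and 35.2 kb in C2 against 19.8 and 20.4 kb in C10 (0.90, limma adjusted p = 0.0127). The C/EBP motif TTGCNNAA was in 7 of the 20 target promoters in the table (35%, against 9.11% of all promoters). The PU.1/ETS motif was in 60% of them, against 22.1%, and the GATA motif in 25%, against 9.12%. The 7 were those of Fcnb, Il6, Lcn2, Ltf, Mmp8, Ngp and S100a9.

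**Figure D5:**
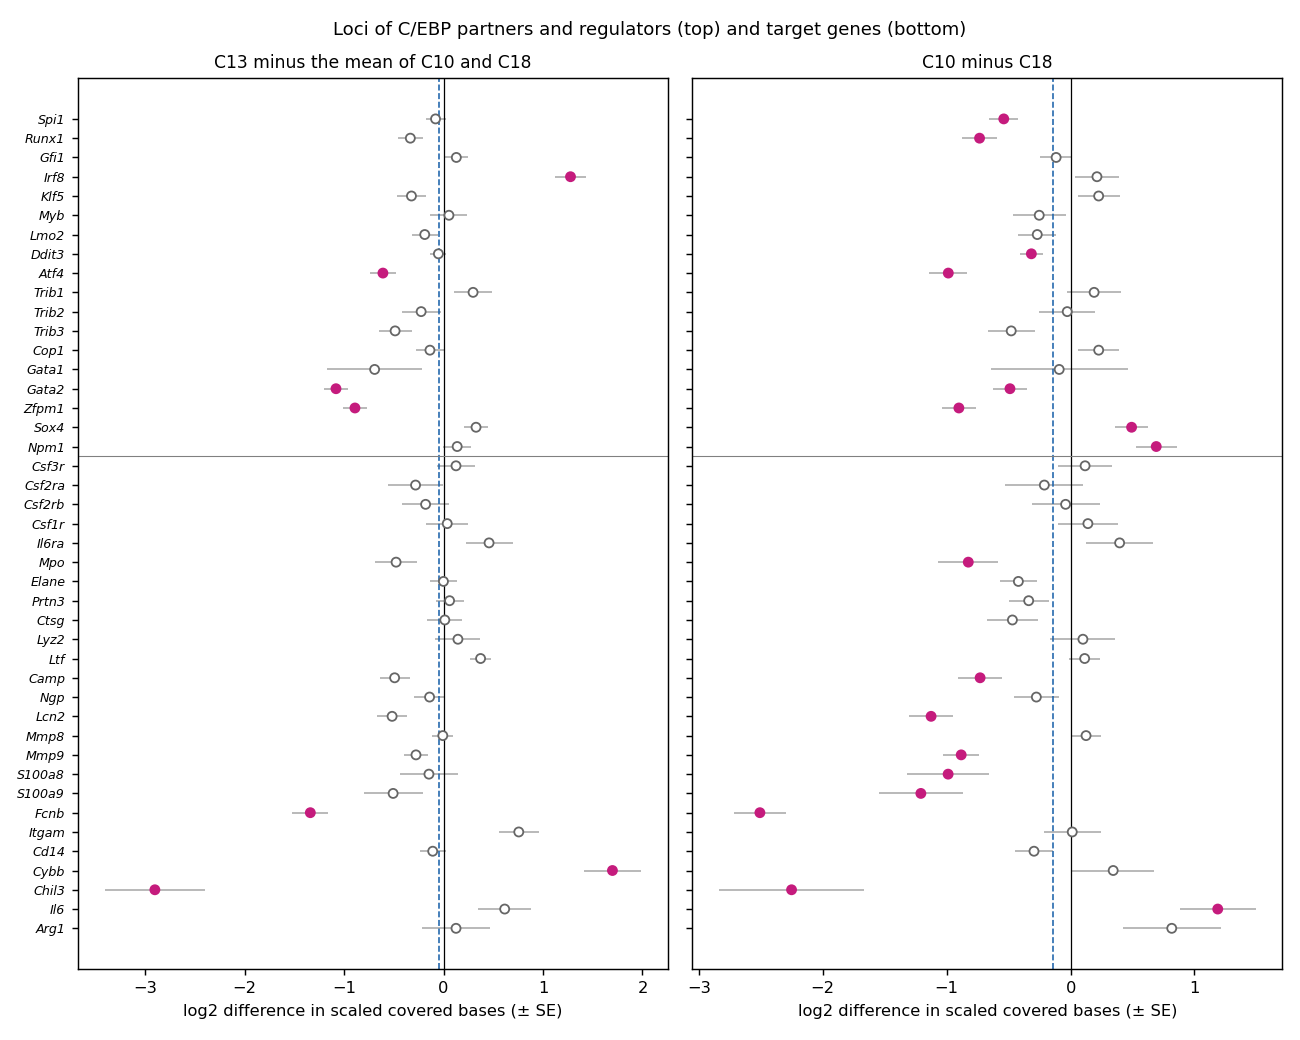
Log2 difference (± SE) of the scaled covered bases at 18 partner and regulator loci (above the line) and 25 target loci (below), in C13 against the C10/C18 mean (left) and in C10 against C18 (right). Filled points pass the limma test, and the dashed line is the median of all loci. On the right, 14 filled points lie left of 0 and 3 lie right of it, with Ddit3 the 1 called locus whose direction turned without scaling.

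The covered length of Cebpb, Cebpd and Cebpe varied together over the 8 libraries, and that of Cebpa with Cebpg. Pearson's r was 0.90 between Cebpb and Cebpe, 0.81 between Cebpb and Cebpd and 0.79 between Cebpd and Cebpe. It was 0.94 between Cebpa and Cebpg, whose windows share 37.3 kb, and between -0.14 and 0.12 for the pairs across these groups. These are descriptions over 8 libraries that fall into 4 populations and share their peak widths. The loci most like Cebpb over the libraries were 1700001P01Rik, Vps29 and Sh3bp1 (r of 0.994 to 0.989), and those most like Cebpe were Sufu, Aldoa and Pgpep1 (0.987 to 0.985). Cebpb had 1009 loci with r above 0.9 and Cebpe 748, of 19688 compared. Cebpa had 54, led by Tpm4, Kcnab1 and Frrs1 (0.980 to 0.969), and Cebpg 51, led by Gm884, the granulocyte colony-stimulating factor receptor gene Csf3r and Vmn1r39 (0.987 to 0.961). Cebpd had 260, led by Kcnj3, Gm52420 and Gm1140 (0.993 to 0.992), whose loci had no F-Seq peak in any C13 or C10 library.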

How the data were processed

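ATAC-seq peak lists of 8 libraries, 2 each of C2, C13, C10 and C18, were read on mm10. The authors used Bowtie 1.0.0 and HOMER 1.0, per the submitters' processing notes, and no version of F-Seq is given in the sources used here. Peak heights in the deposited F-Seq lists are a signal specific to each library and served here as ranks alone. The deposited HOMER lists have unlabelled score columns, which were not used, only the positions were. The lists were called separately per library and none of the 16 lists was a copy of another.

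Loci were the gene bodies of protein-coding genes in RefSeq GRCm38.p6, extended by 50 kb. Covered bases were scaled to the mean covered length of a library (factors 0.885 to 1.43 for the full F-Seq lists). HOMER lists and shortened F-Seq lists were scaled to their own mean covered length, with other factors. Locus differences were taken after log2(bases + 200), so changes at little-covered loci are understated. Loci (19710) and regions (124246 of 207739) with a peak in 2 or more libraries entered a limma 3.58.1 fit in R 4.3.3, with 4 group means, 1 shared spread, eBayes with trend and Benjamini-Hochberg adjustment over all of them at 0.05. Every adjusted p comes from these fits, which were also run on simulated data with known changes. Fits without C18 set C2 and C13 against C10.

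The members and gene lists were chosen with earlier results of these data known. Named were the 5 genes, their gene-start regions, every region called in their windows, up to 3 further regions per comparison with the largest difference among groups that do not overlap, and list genes past the threshold. The likeness measure was Pearson's r over the 8 libraries. Alternatives were another caller, window, pseudocount, filter, scaling, list length, spread model, a replicate block, and leaving out libraries. Scores centred on each library's median over 9223 gene-start regions called in all 8 libraries were added after the data had been seen. Peak sequences were not read, as no genome of this build was used here.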

Additional observations from a re-analysis of the deposited data

How the results depend on the processing

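Of the 24 region calls in the 5 windows, 8 passed the threshold under every alternative that gave a value, among them the sites 20.3 kb before Cebpa and 4.35 kb below Cebpe. These 8 include the region 18.5 kb after the Cebpa start, which entered the test only through its C13 peaks, so its being kept adds no support. Leaving out 1 library ended 15 of the 24 calls, centring the scores 9, and leaving out the C18 libraries 7 of the 15 in C13. Of the 3 locus calls, each was lost when some 1 library was left out. Depth is unknown, 2 libraries a population limit every test, and the cause of the changes below was not tested.

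Locus calls in C2 against the C10/C18 mean numbered 15, and 0 with 10 kb windows, 59 with the 50000 strongest peaks, 0 with HOMER, 0 for loci covered in all 8 libraries, 208 with no filter, 185 with no trend, 195 by number of peaks, 47 with peaks of both callers, 0 and 71 with pseudocounts of 1000 and 50, and 4180 without C18, with 0 to 1011 when 1 library was left out. In C13 against that mean there were 1904, and 1265 with 10 kb windows, 6575 with HOMER, 749 by number of peaks, 4428 with peaks of both callers and 1117 without C18 (2 to 4660 with 1 library left out). In C10 against C18 there were 7027, and 4087 with 10 kb windows, 10907 with HOMER and 1893 by number of peaks (1425 to 8529 with 1 library left out). Over any population there were 7301, and 4105 with 10 kb windows, 4594 with no filter and 1574 by number of peaks (2775 to 10220 with 1 library left out).

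Region calls in C2 against the C10/C18 mean numbered 1479, and 5293 with the 50000 strongest peaks, 9174 with an absent peak at rank 200000, 0 with no filter, 2587 with no trend and 8220 without C18 (0 to 9457 with 1 library left out). In C13 there were 41870, and 66486 with centred scores (14238 to 49995 with 1 library left out). In C10 against C18 there were 22447, and 13913 with no filter and 86011 with centred scores (5043 to 26093 with 1 library left out). In C2, 17.3% of the calls with centred scores were higher ones, against 57.5% without centring, and the median of all regions was -0.15. Without scaling, the median of all loci was 0.17 in C2 and 0.21 in C13, against 0.051 and -0.045 with scaling, and 90.2% of the locus calls in C13 were higher ones, against 47.5%. Asking for an overlap of 50 bases changed no call.

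Replicate numbers were not used as pairs in the main fits, and the labels do not say whether same-numbered libraries belong together. Deviations of same-numbered libraries correlated at -0.00591 to 0.173 across loci, which does not settle it. With a replicate block, locus calls numbered 10, 1643 and 6970 in the 3 comparisons and 6868 over any population, and region calls 0, 39593 and 19233. The block took the adjusted p of Cebpd in C10 against C18 to 0.0567, and ended 5 region calls. In C13 these were the regions 7.99 kb after the Cebpa start (0.0647), 20.9 kb after the Cebpg start (0.0644) and 8.86 kb below Cebpe (0.0568), and in C10 against C18 that same Cebpe region (0.0662) and the one 13.6 kb before Cebpb (0.0586).

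For the member loci and named regions, the directions below turned, 1 of them that of a called value. With HOMER the differences were -0.059, -0.70 and -0.75 for Cebpa in the 3 comparisons, and -0.18 for Cebpb, 0.014 for Cebpd and -0.048 for Cebpe in C2. By number of peaks they were -0.12 and -0.011 for Cebpa in C13 and C10, and -0.11 for Cebpg in C13. With peaks of both callers they were -0.19 and -0.19 for Cebpa in C13 and C10, -0.014 for Cebpe in C2 and -0.10 for Cebpg in C13. With 10 kb windows Cebpa had -0.025 in C10, without scaling Cebpb had 0.035 in C13 and Cebpd 0.036 in C2, and with the 50000 strongest peaks Cebpg had -0.24 in C10. Without C18, Cebpa had -0.072, Cebpb 0.21 and Cebpg -0.0083 in C13, Cebpd 0.17 in C2, and the region 27.2 kb before Cebpb 0.016 in C13, where it had been called. With 1 library left out the differences ran from -0.10 to 0.19 for Cebpa in C13, -0.047 to 0.52 for Cebpa in C10, -0.29 to 0.12 for Cebpd in C2, -0.074 to 0.27 for Cebpg in C13, and -0.13 to 0.55 for Cebpg in C10.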
